A study of Mus musculus with 3 samples.

Results

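Postn, Aspn and Ccn3 encode periostin, asporin and cellular communication network factor 3, which are secreted proteins of the extracellular matrix. They made up 3 of the 125 targets that had a molecule in a targeted single-cell RNA-seq data set of mouse bone marrow (BM). The genes were chosen by symbol and on values measured in these same libraries, namely their overlap in cells without Ptprc, Ccn3 in endothelium and their fetal against adult levels. Those values are therefore given as a description, with no test.

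3 groups of wild-type C57/B6 mice were profiled, with 1 library each. The group E18.5 EC held endothelial cells (ECs) sorted from fetal marrow, with a gate that the submitters describe as CD31 and endomucin and the methods as CD31. The group E18.5 BM cells is here called fetal marrow, and the group Adult BM cells adult marrow. Both had been depleted of mature blood cells by lineage antibodies, so their shares of cell classes depend on the depletion. Where the methods detail the depletion, adult cells also passed further separation steps, including CD45 antibody, which are not described for fetal cells. Stage and preparation therefore cannot be told apart. Several animals went into each library, the age of the adults was not used here, and cells of 1 library are not replicates. Each interval in parentheses is a 95% interval that covers counting error only, from the exact binomial distribution for shares, the exact Poisson distribution for levels and its conditional form for ratios.

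Matricellular proteins sit in the matrix without being its main structural fibres, and they modulate how cells attach to it and respond to growth factors. Periostin binds collagens and integrins and is known from the periosteum, tendon and other fibrous tissue. Asporin is a small leucine-rich proteoglycan that binds collagen and TGF-beta. CCN3, formerly called NOV, belongs to the CCN family of cysteine-rich regulators and is made by several mesenchymal cell types and by endothelium.

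Each gene was read through a single amplicon of the panel. The Postn amplicon was annotated to a transcript of 22 exons on chromosome 3 (54361125 to 54391034, plus strand, GRCm38), that of Aspn to a transcript of 8 exons on chromosome 13 (49544487 to 49567565, plus strand), and that of Ccn3 to a transcript of 5 exons on chromosome 15 (54745702 to 54754039, plus strand). The 3 genes lie on separate chromosomes, so their reads do not overlap. Where the amplicons lie within the transcripts was not checked. The bases upstream of the RefSeq start (GRCm38.p6) are shown for Postn and Aspn as the members with an entry in the promoter table used. Capitals mark TATAAA on either strand, which 12.4% of 32851 promoters hold within 250 bases of the start.
Postn, chr3:54360857-54361106, plus strand: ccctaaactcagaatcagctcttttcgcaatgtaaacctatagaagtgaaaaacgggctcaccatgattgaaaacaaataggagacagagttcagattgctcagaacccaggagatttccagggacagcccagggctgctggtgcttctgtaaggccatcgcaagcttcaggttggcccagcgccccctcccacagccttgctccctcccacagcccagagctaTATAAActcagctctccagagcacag
Aspn, chr13:49544193-49544442, plus strand: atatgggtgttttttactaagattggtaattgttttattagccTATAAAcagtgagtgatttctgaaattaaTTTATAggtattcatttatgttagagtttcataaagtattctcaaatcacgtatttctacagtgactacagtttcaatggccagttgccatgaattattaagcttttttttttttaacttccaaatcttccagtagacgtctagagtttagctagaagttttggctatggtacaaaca
The Postn window held TATAAA once, 26 bases before the start, and the Aspn window held it at 207 and 178 bases before the start. The E-box letters CANNTG, found in 66.2% of these promoters, matched 1 time in the Aspn window and 0 times in that of Postn. TGANTCA, the letters of an AP-1 site, had 0 matches in either window and was found in 6.75% of promoters.

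The libraries held 432987 to 6304495 molecules, and 4038 sorted ECs, 12844 fetal and 7939 adult marrow cells passed a minimum of 20 molecules and 5 targets. Ptprc, which encodes the pan-haematopoietic antigen CD45, was not detected in 3014, 2349 and 6270 of these cells, with medians of 75, 137 and 322.5 molecules per cell. An endothelial gate of at least 5 molecules of Pecam1 and Kdr together took 85.1%, 7.40% and 28.4% of cells, and Ptprc was found in 25.4% of the cells sorted as endothelial. Between 38 and 113 cell indices were shared by each pair of libraries, which is at most 1.43% of a library. No doublet caller was run on the panel.

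Among Ptprc = 0 cells, all 3 genes were most abundant in fetal marrow. Postn was at 33.9 molecules per 10000 panel molecules in the sorted ECs (31.7 to 36.1), 2263 in fetal marrow (2250 to 2275) and 12.4 in adult marrow (12.1 to 12.7). Aspn was at 14.8, 403 and 17.7, and Ccn3 at 44.8, 433 and 16.8. Among the sorted ECs, 907 of the 932 Postn and 370 of the 407 Aspn molecules lay in 60 cells outside the endothelial gate. The 2954 sorted Ptprc = 0 cells in the gate were at 0.939 for Postn, 1.39 for Aspn and 41.1 for Ccn3. Fetal over adult marrow, the levels of all Ptprc = 0 cells gave ratios of 182 for Postn (178 to 186), 22.7 for Aspn (22.2 to 23.3) and 25.8 for Ccn3 (25.2 to 26.4). By mean molecules per cell, a scale on which the deeper adult cells count for more, the ratios were 42.7, 5.33 and 6.05. Among all 118 targets measured, 50.8% were at least 2-fold higher at E18.5 with an interval that left out 1, and 22% were at least 2-fold higher in adult cells. All 3 genes fell on the fetal side, a direction that was among the values used to choose them. In these bulk sums, fewer cells with a gene and fewer molecules per cell cannot be told apart.

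The share of cells with a molecule separates these in part. With every cell thinned to 50 molecules and the 826, 2266 and 194 shallower cells of the 3 libraries dropped, Postn was found in 54.2% of fetal Ptprc = 0 marrow cells (52.0 to 56.4) and 3.38% of adult ones (2.94 to 3.86). Aspn was found in 42.8% against 6.48%, and Ccn3 in 43.6% against 5.36%. Without thinning, the shares were 53.4% against 7.54% for Postn, 43.3% against 10.1% for Aspn and 45.4% against 10.7% for Ccn3. Fetal cells with a gene also held more of it, with a median of 74 Postn molecules against 3 in adult cells, 17 Aspn molecules against 7.5 and 15 Ccn3 molecules against 3. The adult cells were the deeper ones in this comparison.

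**Figure D1:**
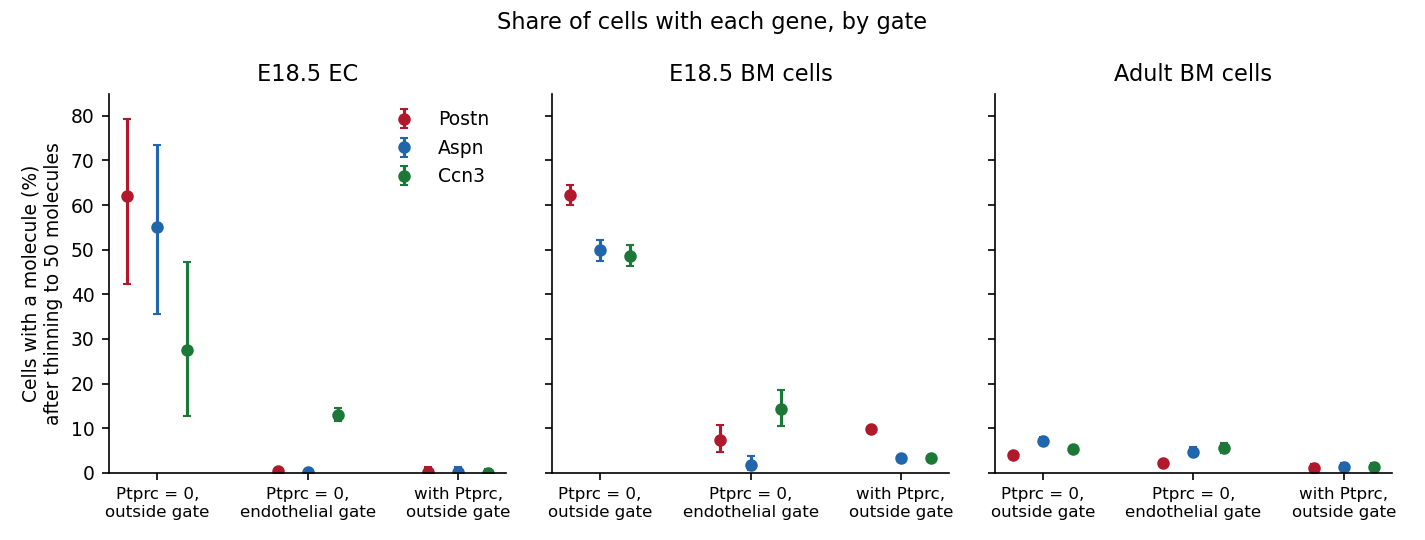
Share of cells (%, y axis) with at least 1 molecule of Postn, Aspn or Ccn3 after thinning to 50 molecules, in 3 gates (x axis) of each library; points are shares and bars exact 95% binomial intervals. In both E18.5 libraries the shares of Postn and Aspn are highest in Ptprc = 0 cells outside the endothelial gate (29 such cells among sorted ECs), while in the gate Ccn3 lies at 13.1% among sorted ECs and 14.2% in fetal marrow.

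In fetal marrow the genes lay in the same cells. Of 1346 fetal Ptprc = 0 cells with any of the 3, 895 held all of them, or 66.5% (63.9 to 69.0). Aspn was found in 78.7% of Postn cells (76.4 to 81.0) and in 2.56% of cells without Postn. Conversely, 97.2% of Aspn cells and 93.6% of Ccn3 cells held Postn. Cells with all 3 genes had medians of 100 Postn and 19 Aspn molecules. Thinning to 50 molecules left 59.2% of positive cells with all 3 genes. The Pearson correlations of log(1 + molecules) across 2079 thinned cells, which share 1 library, were 0.71 for Postn with Aspn, 0.64 for Postn with Ccn3 and 0.56 for Aspn with Ccn3.

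In adult marrow fewer of the positive cells held all 3 genes, and the share of Postn cells with Ccn3 was lower than in fetal marrow. Of the total, 68 of 1262 Ptprc = 0 cells with any of the genes held all 3, or 5.39% (4.21 to 6.78). Aspn was found in 44.0% of Postn cells (39.4 to 48.6), against 7.38% of cells without Postn. The share of the 636 Aspn cells with Ccn3 was 46.9% (42.9 to 50.8), against 6.67% of cells without Aspn. Ccn3 was found in 17.5% of Postn cells (14.2 to 21.3), against 10.2% of cells without Postn. Across 6156 thinned cells the correlation was 0.53 for Aspn with Ccn3, 0.20 for Postn with Aspn and 0.05 for Postn with Ccn3. The adult pattern depended on the error correction, since by molecules before the distribution-based step 53.8% of Postn cells held Ccn3, against 27.3% of cells without Postn. With at least 5 such molecules asked of each gene, the share was 31.2%, against 6.67%. The same settings gave 72.3% and 65.2% in fetal marrow, against 34.0% and 1.47% of fetal cells without Postn. The share of Postn cells with Ccn3 was thus higher at E18.5 under each of them. For the share of Postn cells with Aspn the order of the stages depended on the counts used. The adult share was 66.8% and the fetal share 68.1% at 1 molecule or more before that step, but 71.3% (68.7 to 73.8) against 59.7% (57.5 to 61.9) at 2 or more, and 66.0% (62.0 to 69.9) against 64.1% (61.5 to 66.6) at 5 or more. In cells without Postn, Aspn was found in 35.6%, 16.4% and 9.36% of adult cells at these settings in turn. The fetal shares without Postn were lower, at 18.1%, 4.90% and 1.16%. Among the sorted ECs, 24 of the 39 Ptprc = 0 cells with Postn held Aspn, or 61.5%, against 0.370% of the others. Of those 39 cells, 23 lay outside the endothelial gate. Before the distribution-based step the share with Aspn was 11.1% of 325 cells, against 3.61% of cells without Postn. With at least 5 such molecules it was 70.8% of 24 cells, against 0.100%.

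**Figure D2:**
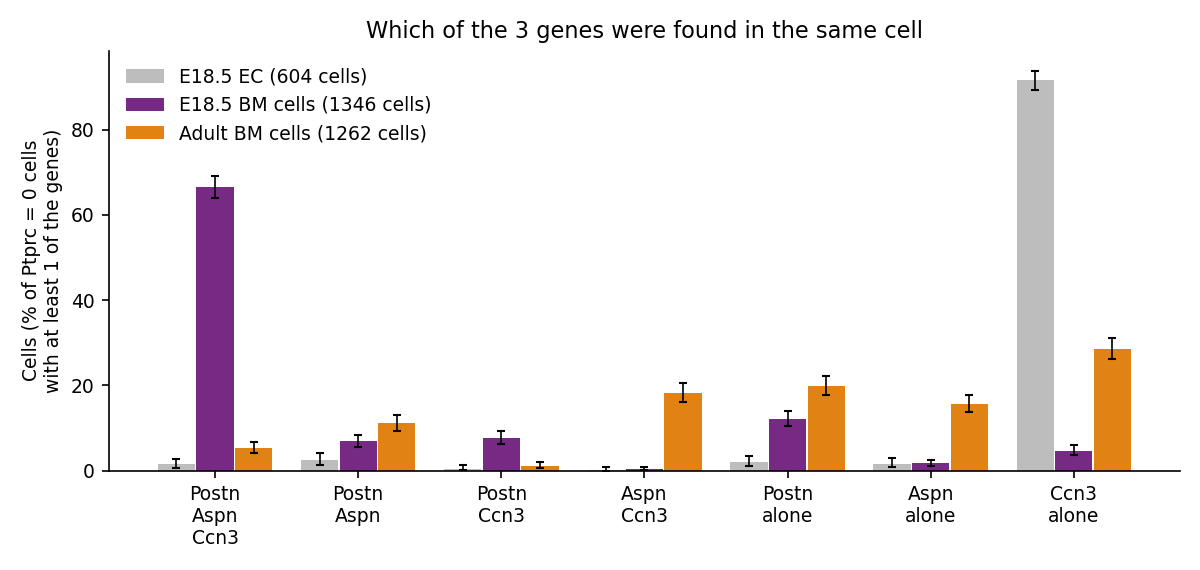
Ptprc = 0 cells by the genes found in them (x axis), as a percent of the cells with at least 1 of the 3 genes in that library (y axis); bars are exact 95% binomial intervals. Cells with all 3 genes made up 66.5% in fetal and 5.39% in adult marrow, and Ccn3 alone made up 91.7% among sorted ECs.

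Cells were also clustered in each library without use of the 3 genes. In fetal marrow, cluster 6, a fibroblast-like cluster of 1008 cells led by Wnt2, Wnt5a and Dkk2, held 79.1% of the library's Postn, 79.9% of its Aspn and 78.1% of its Ccn3 molecules. Postn was found in 99.4% of its cells, Ccn3 in 91.1% and Aspn in 88.4%. Cluster 11, an unnamed cluster of 212 cells led by Cilp and Col22a1, held a further 16.5%, 14.3% and 17.3% of them, and 42.0% of its cells held Ptprc. Cluster 13, of 119 cells, was led by the mural markers Acta2, Tagln and Rgs5 but also by the cartilage genes Matn1, Col2a1 and Epyc, and is not given a cell type here. It held Postn in 78.2%, Aspn in 79.8% and Ccn3 in 42.9% of its cells. Of the 895 cells with all 3 genes, 766 lay in cluster 6 and 91 in cluster 11.

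The adult library held the genes in more than 1 kind of cell. Cluster 9, an unnamed cluster of 320 cells led by Wnt2, Wnt1 and Wnt9a, held 75.3% of the Aspn and 84.0% of the Ccn3 molecules but 45.7% of the Postn molecules. Postn was found in 26.8% of cluster 6, an osteoblast-like cluster led by Mmp13, where its level was 87.0 molecules per 10000 (83.6 to 90.5), while Aspn was found in 2.51% and Ccn3 in 0.628% of those cells. It was also found in 24.0% of the Bglap-led osteoblast-like cluster 10, whose cells had a median of 5547 molecules, and in 2.24% of them once thinned. The mural-like cluster 11 held Aspn in 87.7% of cells and Postn in 45.5%, and Ccn3 in 15.9%. Ccn3 was found in 52.8% of the unnamed cluster 12, at 13.7 molecules per 10000 and in 7.81% of its cells once thinned. This cluster was led by Prg4, the gene of lubricin, but next by the osteoclast genes Atp6v0d2 and Acp5. In both reticular-like clusters, led by Lepr and Cxcl12, each gene stayed below 1 molecule per 10000.

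**Figure D3:**
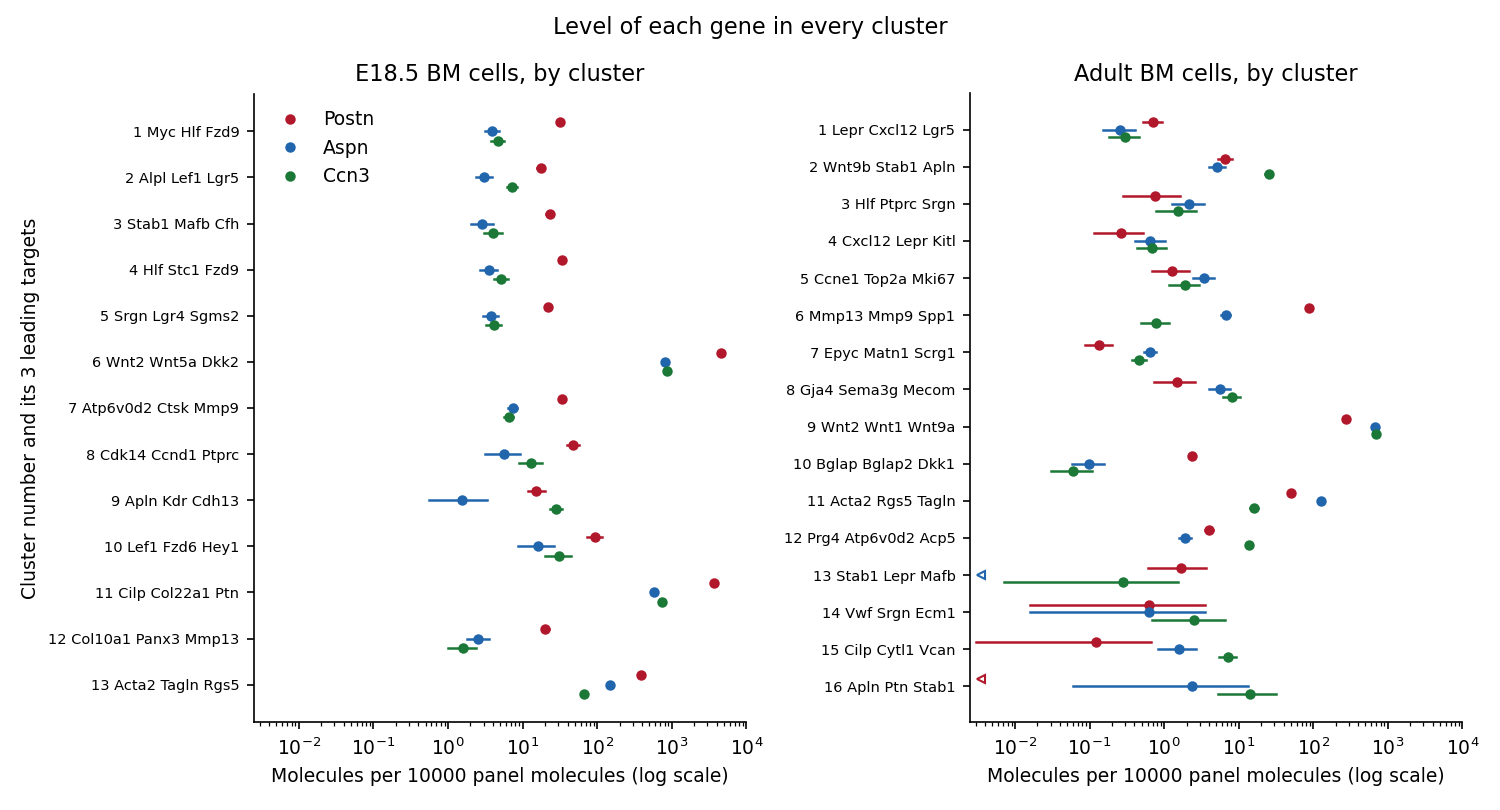
Level of each gene (molecules per 10000 panel molecules, log scale, x axis) in every cluster of both marrow libraries (y axis, with 3 leading targets); lines are exact 95% Poisson intervals and open triangles at the left edge stand for 0 molecules. The 3 genes share their highest clusters (6 and 11) at E18.5, while in the adult library cluster 6 ranks second for Postn (87.0) but is among the low clusters for Ccn3 (0.779).

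The patterns followed these clusters. Adult cells with Aspn and Ccn3 but no Postn lay in cluster 9 for 189 of 230 cells. Those with Postn and Aspn but no Ccn3 lay in the mural-like cluster for 103 of 140 cells. Of 250 cells with Postn alone, 117 lay in cluster 6 and 68 in cluster 10, both osteoblast-like. Of 361 cells with Ccn3 alone, 120 lay in the Prg4-led cluster, 101 in the endothelial-like cluster 2 and 40 in the endothelial-like cluster 8.

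Wnt2 was the leading target of cluster 6 at E18.5 and of cluster 9 in the adult, which allowed the genes to be set side by side in these clusters. Among fetal cells the lowest Postn value was 0, the median 91.5 and the highest 615 molecules, whereas adult cells ran from 0 through a median of 0 to 423. The fetal Postn level was 4530 molecules per 10000 against 277, a ratio of 16.3 (15.8 to 16.9). Aspn ran from 0 to 114 with a median of 16 at E18.5, and from 0 to 308 with a median of 11 in the adult. Its levels of 818 and 674 gave a ratio of 1.21 (1.18 to 1.25). Ccn3 had medians of 15 and 10.5, highest values of 183 and 241, and a ratio of 1.24 (1.21 to 1.27). Aspn and Ccn3 therefore fell short of the 2-fold rule, which 31.2% of 112 targets passed on the fetal and 27.7% on the adult side. Postn made up 45.3% of all fetal molecules in this cluster, so it lowers every other level there. With the 3 genes left out of the total the ratios were 36.0, 2.68 and 2.73, and by the mean number of molecules per cell they were 10.3, 0.765 and 0.781, so that the direction for Aspn and Ccn3 turned with the scale. The fetal excess of Postn held on each of these scales, and was 17.8 by molecules before the distribution-based step.

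**Figure D4:**
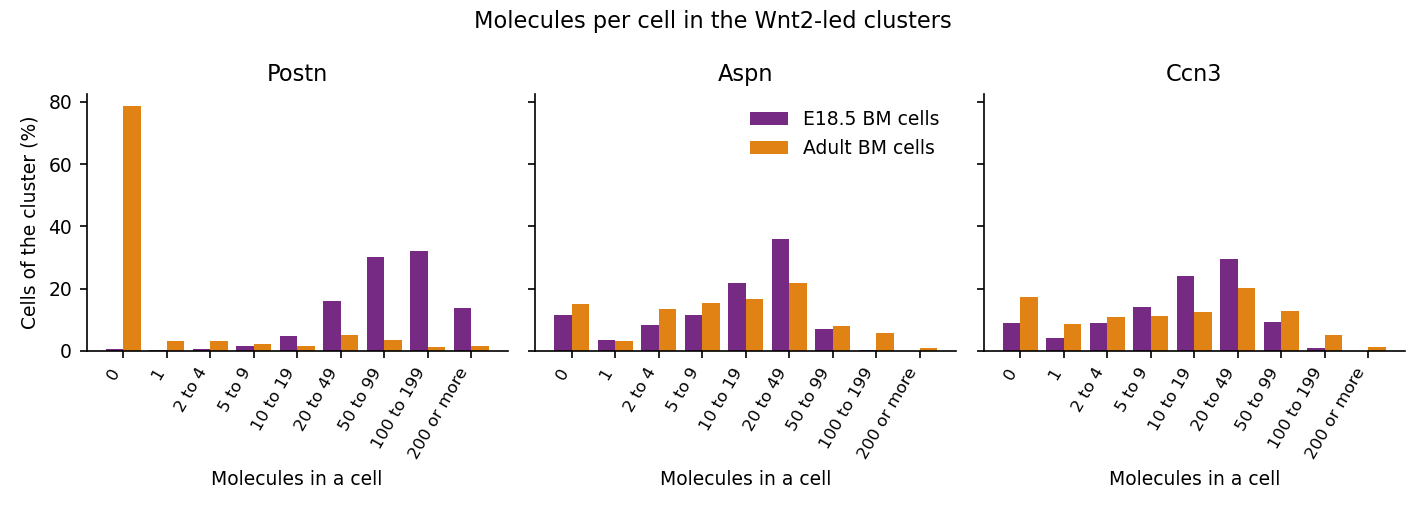
Cells of the Wnt2-led clusters (%, y axis) by the number of molecules of each gene in a cell (x axis), for 1008 cells at E18.5 and 320 adult cells. For Postn 78.8% of adult cells had 0 molecules against 0.595% of fetal ones, while the Aspn and Ccn3 distributions overlap broadly.

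Within the adult cluster, Postn was found in 21.3% of cells, and in 44.1% before the distribution-based step. After thinning, Ccn3 was found in 39.6% of the 53 cells with Postn (26.5 to 54.0) and in 71.6% of the 264 cells without it (65.7 to 77.0), whereas Aspn was found in 69.8% and 69.3%. Wnt2 itself, the gene of a Wnt ligand, lay with the genes in both marrow libraries. Cells with all 3 genes, 1080 of 12844 fetal cells, held 96.9% of the 621 fetal Wnt2 molecules. Cells with exactly 2 of the genes, 400 of 7939 adult cells, held 73.0% of the 426 adult ones. In E18.5 EC, 80.6% of the 372 Wnt2 molecules lay in cells with none of the genes. Such cells were 3400 of the 4038 in that library, so this share is near that of all cells.

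The targets most like the 3 genes, by correlation over thinned Ptprc = 0 cells, were largely matrix and secreted factors in fetal marrow. Vcan, which encodes the proteoglycan versican, led for Postn (0.68) and Ccn3 (0.57), and Ptn, the gene of the heparin-binding growth factor pleiotrophin, led for Aspn (0.44). Ptn, Mgp and Fbn1, the latter encoding matrix Gla protein and fibrillin-1, were among the first 5 for each gene, with Dkk3 for Postn and Aspn and Ecm1 for Ccn3. Vcan was found in 72.3% of thinned fetal Postn cells and 1.89% of the others. In adult cells S100a4, a calcium-binding protein gene of motile and fibroblastic cells, led for Aspn (0.47) and Ccn3 (0.56), and Ecm1, Vcan and Fbn1 followed for both. Wnt11 was the fifth for Aspn and Cdh13 the fifth for Ccn3. The values for adult Postn were lower, at 0.18 for Vcan, 0.17 for S100a4, 0.15 for Rgs5, 0.13 for Tagln and 0.13 for Car3. Among sorted ECs the list was another, with Notch3 (0.61) and Rgs5 (0.49), markers of mural cells, leading for Aspn, and Acan (0.39) and Notch3 (0.38) for Postn. Ccn3 there had values of at most 0.15, with Col22a1 and Col12a1 ahead of Cdh13 (0.13). Acan was found in 3.70% of the 27 thinned Postn cells of this library, 18 of which lay outside the endothelial gate. Col22a1 was found in 0.332% of the 301 Ccn3 cells, so both ranks rest on very few cells.

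The other matrix targets were divided in direction. In Ptprc = 0 cells, 6 of 15 were at least 2-fold higher at E18.5 and 5 were at least 2-fold higher in the adult, beside 50.8% and 22% of all targets, with a median ratio of 0.934 against 2.66 over all targets. Vcan (53.7), Mmp9 (4.73), Fbn1 (4.54), Spp1 (4.17), Mmp13 (3.62) and Srgn (3.51) were on the fetal side. By mean molecules per cell Vcan kept a ratio of 12.6, whereas Mmp9 was at 1.11, Fbn1 at 1.06, Spp1 at 0.977, Mmp13 at 0.849 and Srgn at 0.824, so that the latter 3 turned direction with the scale. The cartilage genes Col2a1 and Acan and the osteocalcin genes Bglap, Bglap2 and Bglap3 were on the adult side, and Bglap copies are similar enough to share reads. Mgp, Ecm1, Fbln5 and Col10a1 met the rule in neither direction. Of the 4 secreted regulators, Ptn (244), Dkk2 (21.5) and Dkk3 (13.5) were higher at E18.5 and Rspo2 had a ratio of 1.14. By mean molecules per cell these were 57.3, 5.04, 3.17 and 0.266. In the Wnt2-led clusters 2 of the 15 matrix targets, Vcan and Acan, were higher at E18.5 and 8 in the adult. With the 3 genes left out of the total, these counts became 5 and 4, and over the 109 targets other than the 3 genes the calls moved from 34 fetal and 31 adult to 58 and 17. Ptn kept a ratio of 63.5 in these clusters.

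Ccn3 was also found in endothelium. Among sorted ECs, the gate held 31.6 Ccn3 molecules per 10000 (29.8 to 33.5), and Ccn3 was found in 16.7% of its 3436 cells. Cells with Ptprc outside the gate, given for comparison, held 0.141 per 10000 and showed Ccn3 in 0.185% (0.00467 to 1.02). Median depths were 81 in the gate and 96 in these Ptprc cells. Whether Ptprc cells make Ccn3 themselves was not tested. Postn and Aspn were found in 0.669% and 0.437% of gated cells, against 1.11% and 0.738% of Ptprc cells outside the gate. After thinning, the shares were 0.479% and 0.221% in the gate, against 0.213% for each gene in those Ptprc cells. The order thus turned with thinning, and none is read from these shares. A single cell held 198 of the 1115 Ccn3 molecules, and without it the level was 26.0 (24.4 to 27.8). Among Ptprc = 0 cells of the gate the level was 41.1, and it was 41.8 in those without Acta2, Tagln and Rgs5, markers of mural cells.

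In fetal marrow, Ccn3 was found in 9.26% of the 950 gated cells (7.50 to 11.3) and at 22.1 molecules per 10000, and Ptprc cells outside the gate showed it in 4.53% at 37.9 per 10000. Share and level thus ran in opposite orders, and no order is read from them. In the latter population, cells with at least 10 Postn molecules held most Ccn3, and the level was 3.68 without them. Gated cells with Ptprc = 0 showed Ccn3 in 16.7% (13.1 to 20.8) and at 53.7 per 10000, which became 29.0 (23.5 to 35.4) where Postn and Aspn were also 0. A single cell held 60 of the 207 Ccn3 molecules of this Ptprc = 0 gate, and without it the level was 38.4 (32.4 to 45.1). Postn was found in 11.1% and Aspn in 3.17% of the gated Ptprc = 0 cells, against 15.1% and 4.03% of Ptprc cells outside the gate. Their levels of 71.1 (63.0 to 80.1) and 15.8 (12.1 to 20.3) were below those of all such Ptprc cells, 181 and 33.1, but above the 16.4 and 2.53 of those with under 10 Postn molecules, and no order is read from them. The ratio of Ccn3 to Postn molecules was 0.755 in the Ptprc = 0 gate, with the cell of 60 Ccn3 molecules included. It was 0.190 in Ptprc = 0 cells outside the gate and 0.209 in Ptprc cells outside it. The source of the Ccn3 in the gate was not tested.

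In adult marrow, 9.01% of 2253 gated cells held Ccn3 (7.86 to 10.3) at 19.7 molecules per 10000, against 1.92% and 11.5 in Ptprc cells outside the gate, with median depths of 129 and 84. After thinning, the shares were 4.52% and 1.28%. A single cell held 81 of the 936 Ccn3 molecules in the gate, and another held 101 of the 249 in the Ptprc cells outside it. Postn and Aspn were also found in this gate, in 4.93% and 7.50% of cells. In gated Ptprc = 0 cells without the mural markers they fell to 1.58% and 1.50%, near the 1.60% and 2.08% of Ptprc cells, while Ccn3 stayed at 7.98% (6.58 to 9.56) and 21.4 per 10000. Of the adult mural-like cluster, 50% of the cells met the endothelial gate. Within the Ptprc = 0 gate, the fetal over adult Ccn3 ratio was 2.53 (2.17 to 2.95) between the marrow libraries and 1.94 (1.77 to 2.12) for the sorted ECs over adult marrow, at median depths of 83, 75 and 123 molecules for fetal marrow, sorted ECs and adult marrow. By mean molecules per cell these ratios were 1.17 and 0.793, so that the direction for the sorted ECs turned with the scale. The levels behind them were 53.7 in fetal marrow, 41.1 in sorted ECs and 21.2 in adult marrow. Without the cell with most Ccn3 in each library they were 38.4, 33.7 and 19.5.

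Relative to Ptprc = 0 cells outside the gate, the Ccn3 level of the whole gate, cells with Ptprc included, was 0.203 (0.169 to 0.245) among sorted ECs, 0.0477 (0.0425 to 0.0534) in fetal marrow and 1.19 (1.12 to 1.28) in adult marrow. With the gate also at Ptprc = 0 the ratios were 0.264 (0.221 to 0.317), 0.116 (0.101 to 0.133) and 1.29 (1.199 to 1.38). The Ptprc = 0 cells outside the gate among sorted ECs numbered 60, and 24 cells of that library formed a cluster led by Col22a1 and Rgs5 with Postn in 87.5% of them. The adult ratio was 0.983 where Postn and Aspn were 0 and 0.849 by thinned shares, so its direction depends on these settings. At the edge of the gate, Ccn3 was found in 0 of 24 sorted Ptprc = 0 cells with 3 or 4 molecules of Pecam1 and Kdr, which allows a share of up to 14.2% by the exact interval, and in 5 of 58 with 5 or 6. The adult counts were 4 of 60 and 7 of 68.

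Ccn3 was uneven among the clusters that lay in the gate. In E18.5 EC, cluster 2, an endothelial-like cluster led by Cdh13 and Igfbp7, had 78.4 molecules per 10000 (72.4 to 84.9), or 53.5 (48.5 to 58.9) without the cell with 198, and Ccn3 in 26.8% of cells. Cluster 1, led by Wnt9b, Wnt2 and Stab1, had 19.6, cluster 6, led by Cytl1 and the arterial gene Gja4, had 21.6, and cluster 3, led by cell cycle genes, had 33.9. The intervals of clusters 1 and 6 overlapped, and the other neighbours in this order did not. The adult endothelial-like clusters were at 25.1 in cluster 2, led by Wnt9b and Stab1 (17.7 to 22.5 without the cell with 70 molecules), and at 8.16 (6.24 to 10.5) in cluster 8, led by Gja4 and Sema3g. Cluster 9 of fetal marrow was at 28.4.

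**Figure D5:**
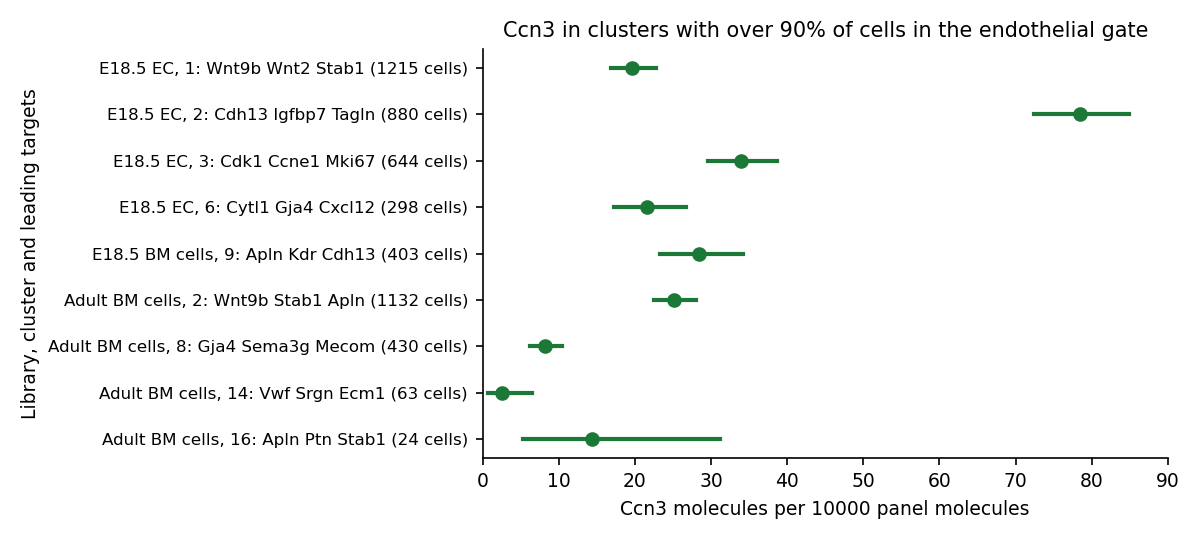
Ccn3 level (molecules per 10000 panel molecules, x axis) in each cluster with over 90% of its cells in the endothelial gate (y axis, named by library, number and leading targets); lines are exact 95% Poisson intervals. Cluster 2 of E18.5 EC lies highest at 78.4, and the adult Gja4-led cluster 8 at 8.16 lies below the Stab1-led cluster 2 at 25.1.

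In thinned Ptprc = 0 gated cells of E18.5 EC, Ccn3 was found in 16.0% of cells with Cdh13, the gene of T-cadherin, and 8.53% of those without it. The shares were 15.8% and 9.02% by Kitl, which encodes stem cell factor, and these intervals did not overlap in either case. Cells with Stab1, a scavenger receptor of sinusoids, held Ccn3 in 11.1% against 18.1%, and those with Vwf in 84 of 839 cells against 209 of 1405. The arterial markers Gja4, Sema3g and Hey1 gave overlapping intervals, with 9.63% against 13.7% for Gja4. Adult ECs showed Ccn3 in 8.09% of cells with Cdh13 and 4.40% of those without it, and the other 6 markers gave overlapping intervals, as all 7 did in the smaller gate of fetal marrow. These markers were compared within 1 library each, and some of them also led the clusters above.

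Outside these classes, 204 fetal marrow cells with Ptprc held at least 10 Postn molecules and 91.1% of the Postn of Ptprc cells. Their median was 2 Ptprc molecules, against 5 in the other Ptprc cells, and 69.1% of them held Srgn, a proteoglycan gene of haematopoietic cells. Aspn was found in 90.2% of them and Ccn3 in 89.2%, and their median of 273.5 molecules exceeded that of the library, 97. Whether they are doublets was not tested.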

How the data were processed

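Cells of each library were captured with the BD Rhapsody system, and a primer panel amplified chosen targets. The reads were processed by the authors with the BD Targeted Rhapsody Analysis Pipeline 1.8 (release as in the headers of the files, while the methods name an earlier one), and the labels give mm10 as the build. Each deposited file lists, per cell index and amplicon, counts of molecules (unique molecular identifiers) that are raw, adjusted by recursive substitution error correction (RSEC), or adjusted further by the distribution-based step (DBEC), all unnormalized by the authors. DBEC counts were used, and they kept 15.6% to 47.7% of the raw molecules of the 3 genes.

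A minimum of 20 molecules and 5 targets per cell removed 5, 40 and 9 cells. Levels are summed molecules per 10000 panel molecules. Presence is at least 1 molecule. Thinning drew 50 molecules from each cell without replacement (random seed 1). Libraries were clustered separately on 87 to 109 targets without the 3 genes, with 11 principal components, 20 neighbours and the Leiden method at resolution 0.5. A cluster was named from marker lists where at least 3 markers exceeded the other cells and 1 class led its 10 leading targets. No other class was allowed where Ptprc was a leading target, except the osteoclast or myeloid class. With 1 library per group no test across samples was made, and no doublet caller was run. Targets named for likeness are the 5 with the highest correlation per gene and library. The genes and lists were chosen with earlier results of these data known. Intervals were checked on simulated counts. Python 3.11.15, numpy 2.4.6, pandas 2.3.3, scipy 1.17.1, scikit-learn 1.9.0, igraph 0.11.9 and matplotlib 3.10.9 were used.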

Additional observations from a re-analysis of the deposited data

How the results depend on the processing

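No paired analysis was possible because each group had 1 library, and for the same reason no replicate could be left out. The settings added after seeing the data were the total without the 3 genes, the mean per cell, at least 2 or 5 RSEC molecules of each gene, the finer clustering, the gate without mural markers, the gate without the cell with most Ccn3, and Ptprc cells under 10 Postn molecules. Of the values under an alternative, 71 stayed within the counting interval of the main value, 113 moved beyond it and 5 reversed, and for the remaining directions of overlap 34 stayed within it and 56 moved. The cause of each change was not tested.

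In Ptprc = 0 cells the fetal over adult ratios of Postn, Aspn and Ccn3 stayed above 1 throughout. They were 121, 15.6 and 20.4 by RSEC molecules, 135, 16.9 and 24.1 by raw molecules, 152, 19.03 and 21.6 without the cartilage targets in the total, and 64.2, 7.80 and 9.08 in all cells. The osteocalcin genes stayed in the total when the cartilage targets were left out. Outside the endothelial gate they were 198.7, 26.0 and 28.1, by thinned shares of cells 16.0, 6.60 and 8.14, without the 3 genes in the total 263, 32.8 and 37.2, and by the mean per cell 42.7, 5.33 and 6.05. In the Wnt2-led clusters the latter total gave 36.0, 2.68 and 2.73 and the mean per cell 10.3, 0.765 and 0.781, where Aspn and Ccn3 reversed. Finer clustering gave 1.17 for Aspn and 1.19 for Ccn3.

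RSEC and raw molecules gave the same shares of cells. Among sorted ECs, Aspn was then found in 11.1% of Postn cells, against 80.8% after thinning to 100 molecules and 87.0% outside the gate. In fetal marrow, Postn cells with Aspn were 68.1% by RSEC or raw molecules, 81.0% with at least 50 molecules per cell and 82.8% thinned to 100. Fetal Postn cells with Ccn3 were 72.3% by RSEC or raw molecules, 81.8% with at least 50 molecules and 75.8% thinned to 50. Fetal Aspn cells with Ccn3 were 84.3% by RSEC or raw molecules, 85.5% with at least 2 molecules of each gene, 80.6% thinned to 50 and 85.05% thinned to 100. In adult marrow, Postn cells with Aspn were 66.8% by RSEC or raw molecules, 37.5% thinned to 50 and 34.6% outside the gate. Adult Postn cells with Ccn3 were 53.8% by RSEC or raw molecules, 11.2% with at least 2 molecules of each, 13.0% thinned to 50 and 12.4% thinned to 100. Adult Aspn cells with Ccn3 were 53.3% by RSEC or raw molecules, 41.4% thinned to 50 and 55.8% outside the gate.

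With at least 2 RSEC molecules of each gene, Postn cells with Aspn were 36.1% among sorted ECs, 59.7% in fetal and 71.3% in adult marrow, Postn cells with Ccn3 62.2% in fetal and 51.0% in adult marrow, and Aspn cells with Ccn3 83.05% and 51.5%. With at least 5, Postn cells with Aspn were 64.1% in fetal and 66.0% in adult marrow, Postn cells with Ccn3 65.2% and 31.2%, and fetal Aspn cells with Ccn3 82.2%. The higher fetal share of Postn cells with Aspn thus turned, whereas that of Postn cells with Ccn3 did not. In cells without Postn, the fetal share with Aspn was the lower under both settings, at 4.90% against 16.4% and 1.16% against 9.36%.

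The Ccn3 level in the gate of sorted ECs was 34.2 by RSEC and 39.9 by raw molecules, 37.2 with at least 10 molecules of Pecam1 and Kdr, 41.1 with Ptprc at 0, 41.2 with Postn and Aspn also at 0, 41.8 with Ptprc and mural markers at 0 and 26.0 without the cell with most Ccn3. Its ratio to other Ptprc = 0 cells was 0.434 in the stricter gate, 0.264 with Ptprc at 0, 0.265 with Postn and Aspn also at 0, 0.399 by thinned shares, 0.268 without mural markers and 0.167 without that cell. In fetal marrow the level was 49.3 by RSEC and 41.8 by raw molecules, 42.2 in the stricter gate, 53.7 with Ptprc at 0, 29.0 with Postn and Aspn also at 0, 54.3 without mural markers and 17.8 without the top cell. The fetal ratio was 0.110, 0.0910, 0.0918, 0.116, 0.0626, 0.117 and 0.0384 in that order, and 0.129 by thinned shares. In adult marrow the level was 21.0 by RSEC molecules, 21.8 in the stricter gate, 21.2 with Ptprc at 0, 16.2 with Postn and Aspn also at 0, 21.4 without mural markers and 18.2 without the top cell. The adult ratio was 1.04, 1.33, 1.29, 0.983, 1.30 and 1.11 in that order and 0.849 by thinned shares, so that it reversed under 2 settings. The Ccn3 level in fetal Ptprc cells outside the gate was 3.68 where Postn was under 10 molecules. The ratio of Ccn3 over adult marrow in the Ptprc = 0 gate was 1.17 for fetal marrow and 0.793 for sorted ECs by the mean per cell, where the latter reversed.

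Depth limits the shares most among sorted ECs, with a median of 83 molecules per cell, and intervals cover counting error and not the spread between animals.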
